A study of Mus musculus with 4 samples.

Results

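The genes described here are 38 protein-coding genes of the blood vessel wall and of the blood-brain barrier, of 21938 protein-coding genes in all. They were taken from a fixed list of names and not from their values, and comprised 28 genes of endothelial cells, the cells that line the vessel, and 10 genes of mural cells, which wrap it (6 of pericytes and 4 of smooth muscle). The 28 endothelial genes were split further into 7 transcription factors and 21 effectors, the junction proteins, receptors, transporters, enzymes and surface proteins that do the work of the barrier. The readout was H3K4me3, the trimethylated form of histone H3 at lysine 4, which lies over the starts of active and poised genes, mapped by chromatin immunoprecipitation and sequencing in left cerebral cortex. All mice were female, 2 months old and of the hybrid strain B6CASTF1/J, with no treatment, mutation or transgene named in the labels. The tissue was processed as pool I and pool J, each a mixture of 4 biosamples and each sequenced as 2 libraries, 4 libraries in all, with fragments of 200 to 600 bases. The libraries share a single donor record, and whether each biosample was a separate animal is not stated.

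In brain capillaries, endothelial cells are sealed to each other by tight junctions and import nutrients through dedicated carriers, while efflux pumps return foreign compounds to the blood. Wnt signalling from neighbouring neural cells, received through beta-catenin and partners such as Lef1, induces this barrier programme, and ETS and SOXF transcription factors set the endothelial identity beneath it. Pericytes are held at the vessel by platelet-derived growth factor signalling, and arterial smooth muscle contracts through a specialised actin and myosin apparatus.

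Peaks came as a list for each pool and a list called on both pools, termed replicated, on the mouse build mm10. A promoter is called marked here when a peak lay within 1000 bases of any annotated transcript start of the gene. Each marked gene was given the authors' enrichment value of its highest promoter peak, a ratio taken as fold over control, and the width of its widest domain, made by merging peaks up to 1000 bases apart. Enrichment was ranked only within a list, and percentiles count marked genes of the same list. Vessel cells are a minority of cortex cells, and in bulk tissue fewer cells of a type and less signal per cell cannot be told apart.

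The promoters of 7 members are shown for what they have in common and where they part. Each run is 300 bases of RefSeq sequence on GRCm38.p6, from 250 bases before to 50 after a RefSeq start, and capitals mark CpG pairs, the dinucleotides whose density goes with H3K4me3 at most mammalian promoters. Cldn5 encodes claudin-5, the main tight junction protein of brain endothelium, and its promoter at chr16:18776597-18776896 on the plus strand held 12 CpG. Flt1 and Kdr encode receptors for vascular endothelial growth factor. The Flt1 promoter at chr5:147725962-147726261 on the minus strand held 29 CpG, and the Kdr promoter at chr5:75978406-75978705 on the minus strand held 19. Slc2a1 encodes the glucose carrier GLUT1 and is shown as the member of highest enrichment (chr4:119108495-119108794, plus strand, 18 CpG). Slco1a4 encodes an organic anion carrier and is shown as a marked promoter with 1 CpG (chr6:141856171-141856470, minus strand). Acta2 encodes smooth muscle actin (chr19:34255324-34255623, minus strand) and Rgs5 a pericyte regulator of G protein signalling (chr1:169655251-169655550, plus strand), and both held 6 CpG and had no peak in the replicated list. The median over 16522 protein-coding genes with such a sequence was 15 CpG.

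Cldn5: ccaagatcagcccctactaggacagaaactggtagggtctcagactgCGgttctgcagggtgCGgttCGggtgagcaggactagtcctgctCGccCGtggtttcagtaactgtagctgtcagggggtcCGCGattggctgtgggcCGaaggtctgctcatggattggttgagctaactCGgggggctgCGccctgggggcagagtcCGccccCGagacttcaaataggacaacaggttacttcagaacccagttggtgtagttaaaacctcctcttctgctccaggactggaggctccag

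Flt1: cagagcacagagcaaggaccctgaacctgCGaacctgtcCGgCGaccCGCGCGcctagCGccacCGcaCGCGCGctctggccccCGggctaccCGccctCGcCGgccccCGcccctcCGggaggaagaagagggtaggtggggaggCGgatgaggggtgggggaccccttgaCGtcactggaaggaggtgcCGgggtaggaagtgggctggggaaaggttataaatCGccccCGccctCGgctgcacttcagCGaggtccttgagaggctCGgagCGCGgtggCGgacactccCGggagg

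Kdr: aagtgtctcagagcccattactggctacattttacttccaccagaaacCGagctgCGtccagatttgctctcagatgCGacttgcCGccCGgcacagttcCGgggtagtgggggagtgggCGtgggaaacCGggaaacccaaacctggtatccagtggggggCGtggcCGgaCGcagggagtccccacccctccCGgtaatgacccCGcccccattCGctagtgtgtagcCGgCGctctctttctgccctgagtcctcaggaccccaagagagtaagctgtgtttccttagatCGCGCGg

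Slc2a1: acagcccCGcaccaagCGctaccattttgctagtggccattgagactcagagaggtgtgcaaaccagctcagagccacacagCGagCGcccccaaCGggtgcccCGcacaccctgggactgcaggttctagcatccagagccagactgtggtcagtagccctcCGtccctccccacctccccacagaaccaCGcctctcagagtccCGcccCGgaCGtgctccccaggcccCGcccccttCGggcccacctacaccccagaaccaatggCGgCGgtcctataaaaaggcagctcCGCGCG

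Slco1a4: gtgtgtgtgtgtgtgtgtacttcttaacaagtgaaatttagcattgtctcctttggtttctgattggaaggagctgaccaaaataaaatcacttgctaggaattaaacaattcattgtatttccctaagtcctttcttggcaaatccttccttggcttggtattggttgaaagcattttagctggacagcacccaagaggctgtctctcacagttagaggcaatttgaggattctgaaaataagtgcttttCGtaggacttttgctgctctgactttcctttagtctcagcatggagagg

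Acta2: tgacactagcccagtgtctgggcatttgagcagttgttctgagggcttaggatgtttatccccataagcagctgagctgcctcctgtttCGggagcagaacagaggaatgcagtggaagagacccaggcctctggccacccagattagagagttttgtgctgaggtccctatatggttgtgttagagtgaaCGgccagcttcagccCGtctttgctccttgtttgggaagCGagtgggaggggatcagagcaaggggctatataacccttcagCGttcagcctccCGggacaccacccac

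Rgs5: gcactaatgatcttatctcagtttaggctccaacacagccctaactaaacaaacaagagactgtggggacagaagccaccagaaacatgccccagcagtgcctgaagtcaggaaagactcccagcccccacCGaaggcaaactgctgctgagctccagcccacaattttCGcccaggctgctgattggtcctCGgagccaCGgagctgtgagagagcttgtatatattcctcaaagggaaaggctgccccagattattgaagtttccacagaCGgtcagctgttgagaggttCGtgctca

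The RefSeq starts lay 217 bases from the GENCODE start used here, 1 of several at some genes, for Acta2, 169 for Slc2a1, 49 for Slco1a4, 23 for Flt1 and 3 for Kdr, and at the same base for Cldn5 and Rgs5.

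Nearly all endothelial genes were marked, and mural genes were split evenly between marked and unmarked. In the replicated list, 32 of 38 members (84.2%) were marked, against 65.2% of all protein-coding genes. Of the endothelial genes 27 of 28 were marked, and of the mural genes 5 of 10, a share below that of all genes. In pool I alone, 34 members were marked (28 endothelial, 6 mural), beside 64.8% of all genes, and in pool J alone 29 (25 endothelial, 4 mural), beside 63.9%. These are counts of named genes within 1 list per pool, with no test across samples. The unmarked members of the replicated list were Ly6c1 among endothelial genes, Rgs5 and Anpep among pericyte genes, and Acta2, Tagln and Des among smooth muscle genes.

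Marked members mostly carried low enrichment, over domains of widely different width. Their median enrichment was 7.28, beside 20.8 over all marked genes, a median percentile of 9.10, and 25 of the 32 fell below percentile 25. Their median domain width was 2467.5 bases, beside 2124 bases over all marked genes. Endothelial genes had a median enrichment of 7.94 and a median width of 2541 bases, and mural genes 5.89 and 1235 bases. The median percentile of width was 64.8 for endothelial genes and 14.6 for mural genes. The scatter of all marked promoters places most members below the main cloud, with the mural genes other than Vtn to the left of most endothelial ones.

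**Figure D1:**
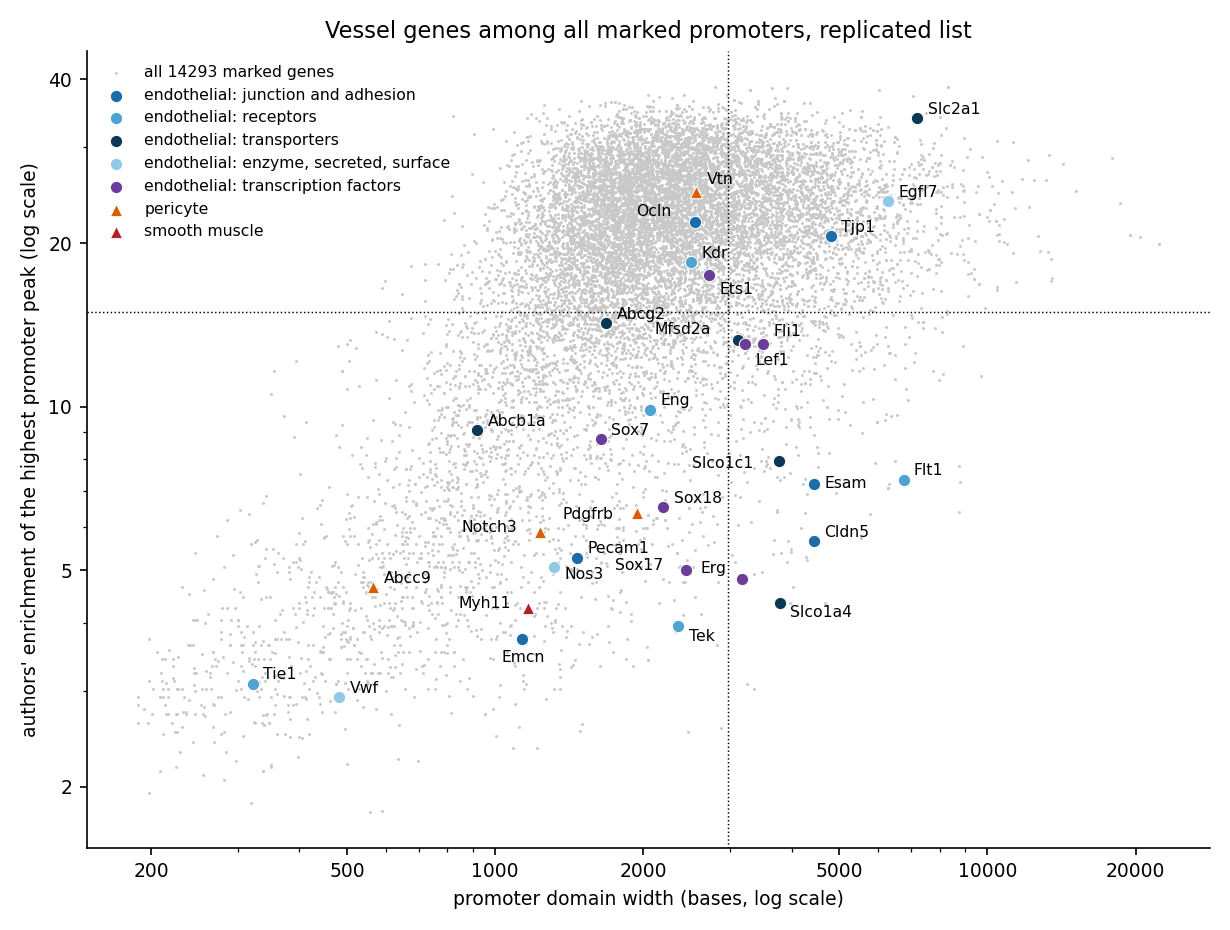
Authors' enrichment of the highest promoter peak against promoter domain width in the replicated list, both on log scales, with circles for endothelial genes, triangles for mural genes and grey points for all 14293 marked genes. Dotted lines mark percentile 25 of enrichment and percentile 75 of width, and the 9 members in the lower right quadrant are all endothelial.

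Junction and adhesion genes were marked in all 3 lists, 6 of 6. Cldn5 had an enrichment of 5.75 in pool I, 5.18 in pool J and 5.65 in the replicated list. Its domain measured 4022 bases in pool I, 4187 in pool J and 4433 in the replicated list (chr16:18776093-18780525), wider than 91.5% of marked genes at an enrichment higher than only 6.40% of them. The start of Cldn5 lay between a peak of 529 bases and a peak of 3606 bases that began 73 bases past it, and the domain ran past the end of the gene. Esam, an adhesion molecule of endothelial tight junctions, was of the same kind, with an enrichment of 7.38 in pool I, 7.12 in pool J and 7.20 in the replicated list and widths of 4480, 4378 and 4437 bases in the same order. The 2 pools set Cldn5 at 4104.5 ± 117 bases and Esam at 4429 ± 72.1 bases (mean ± SD, n = 2 pools), so each promoter had nearly the same domain in both.

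Ocln and Tjp1 encode occludin and ZO-1, junction proteins that epithelia share with endothelium. Ocln had an enrichment of 20.1 in pool I, 22.5 in pool J and 21.8 in the replicated list, near the middle of all marked genes (percentile 55.4). Tjp1 had 23.6 in pool I, 28.4 in pool J and 20.6 in the replicated list, over 4844, 3775 and 4802 bases in that order. Pecam1, the platelet and endothelial adhesion molecule CD31, was lower, at 5.51 in pool I, 4.74 in pool J and 5.28 in the replicated list. Its peak lay at an internal start, and Pecam1 was unmarked when its 5′-most start alone was used. Emcn, a sialoglycoprotein of capillary and venous endothelium, had the lowest values of the group, 4.56 in pool I, 3.09 in pool J and 3.74 in the replicated list, over 1070, 612 and 1135 bases.

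The receptors ranged between Kdr, with a compact peak of middling enrichment, and Tie1, with a short and weak one. Kdr, the main signalling receptor for vascular endothelial growth factor, had an enrichment of 18.6 in pool I, 17.1 in pool J and 18.5 in the replicated list, with widths of 2672, 2239 and 2498 bases. Flt1, which binds the same ligand with high affinity and signals weakly, had 6.25 in pool I, 7.68 in pool J and 7.35 in the replicated list. The Flt1 domain reached 5878 bases into the gene in the replicated list (chr5:147720110-147726862, 6753 bases from 7 peaks). It measured 6218 bases in pool I and 2681 in pool J (4449.5 ± 2501, mean ± SD, n = 2 pools), and so differed 2.32-fold between pools. The Flt1 gene held 11 peaks outside its start windows in the replicated list, more than any other member, with 6 in pool I and 1 in pool J and enrichments of at most 5.395 in pool I, 4.12 in pool J and 4.05 in the replicated list. No annotated start of any gene lay within 1000 bases of these peaks.

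Tek and Tie1 encode the angiopoietin receptor TIE2 and its partner. Tek had an enrichment of 4.94 in pool I, 3.30 in pool J and 3.95 in the replicated list, and its width differed 2.60-fold between the pools (2067 bases in pool I, 796 in pool J). Tie1 had 3.35 in pool I over 412 bases and 3.10 in the replicated list over 322 bases, and was not marked in pool J. Eng, a co-receptor for transforming growth factor beta ligands, lay between them and Kdr, at 9.69 in pool I, 9.49 in pool J and 9.88 in the replicated list. Of the angiopoietins that bind TIE2, Angpt1, the agonist, had 7.48 in the replicated list over 2842 bases and Angpt2, the context-dependent antagonist, had 2.57 over 2872 bases.

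Transporter genes were marked in all 3 lists, 6 of 6, and lay at starts of widely different CpG content. Slc2a1 had the highest enrichment of any member, 31.9 in pool I, 33.8 in pool J and 33.996 in the replicated list (percentile 98.9). Its domain was also the widest of the members in the replicated list, 7204 bases (chr4:119108283-119115486), with 4757 bases in pool I and 5683 in pool J. GLUT1 is made by astrocytes and other cells as well as endothelium, and the lists do not separate them. Mfsd2a, a lipid carrier that limits transcytosis across brain endothelium, had 14.2 in pool I, 14.5 in pool J and 13.3 in the replicated list, over 3164, 2798 and 3108 bases. The Mfsd2a peak also held a start of the non-coding transcript 4933421A08Rik, 157 bases away.

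Slco1a4 had an enrichment of 4.94 in pool I, 4.12 in pool J and 4.36 in the replicated list. Its domain, gaps between merged peaks included, measured 4148 bases in pool I, 2239 in pool J and 3786 in the replicated list (chr6:141852423-141856208), where it reached 3748 bases past the start used. The neighbouring family members Slco1a1, Slco1a5, Slco1a6 and Slco1b2, carriers of the same gene cluster, were unmarked in all 3 lists, relatives that were added after values had been seen. Slco1c1, a thyroxine carrier of endothelium and astrocytes, had 9.31 in pool I, 6.19 in pool J and 7.94 in the replicated list, over 4490, 3635 and 3775 bases. The efflux pumps were narrower. Abcb1a, P-glycoprotein, had 8.75 in pool I, 8.66 in pool J and 9.06 in the replicated list over 937, 921 and 919 bases, and its tandem copy Abcb1b had 14.5 over 1213 bases in the replicated list. Abcg2, breast cancer resistance protein, had 16.3 in pool I, 13.002 in pool J and 14.3 in the replicated list, at starts downstream of its 5′-most one, where no peak lay. The highest Abcg2 peak was not the same in both pools. At the start at chr6:58596671 the peak had 16.3 in pool I, 11.3 in pool J and 14.3 in the replicated list. At the start at chr6:58640546 it had 13.9, 13.002 and 13.9 in the same order.

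The enzyme, secreted and surface proteins had enrichments between 2.93 and 23.9 in the replicated list. Egfl7, an endothelial matrix protein, had an enrichment of 23.3 in pool I, 23.3 in pool J and 23.9 in the replicated list. Its domain measured 7618 bases in pool I, 3832 in pool J and 6273 in the replicated list, and its highest peak also held the start of the gene model Gm20532, 50 bases away. Egfl7 hosts the endothelial microRNA miR-126. The miR-126 hairpin began 1165 bases past the domain in the replicated list, 789 past it in pool I and 3623 in pool J. The pool J domain left out a further promoter peak of 1145 bases with an enrichment of 3.71 (chr2:26588976-26590120). This peak lay between the domain and the hairpin, past a gap too wide for merging. The pool J width and distance therefore depend on the merging limit. The mature strand miR-126a-3p lies at chr2:26591402-26591423 on the plus strand, shown with its seed, bases 2 to 8, in capitals.

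mmu-miR-126a-3p: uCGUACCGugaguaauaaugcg

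Nos3, endothelial nitric oxide synthase, had an enrichment of 4.84 in pool I, 4.07 in pool J and 5.07 in the replicated list, with widths of 560, 1345 and 1318 bases. Vwf, the von Willebrand factor of clotting, had 2.85 in pool I and 2.93 in the replicated list, the lowest of all marked members, and no promoter peak in pool J. The Vwf gene held 1 peak outside its start windows in each list. In the replicated list it lay 20296 bases from the start used for the promoter peak. Its enrichment was 4.56 in pool I, 4.95 in pool J and 4.66 in the replicated list. In pool I and in the replicated list this was above that of the promoter. Ly6c1, a surface protein of brain endothelium and monocytes, was marked in pool I but not in pool J, by a peak of 278 bases with an enrichment of 4.18 that began 800 bases from the nearest start, and in the list of the pooled reads by a peak of 259 bases with an enrichment of 3.54. In the replicated list the nearest peak to a Ly6c1 start lay 51585 bases away, and its near-identical neighbour Ly6c2 was unmarked in all 3 lists.

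All 7 endothelial transcription factors were marked in all 3 lists. Of the SOXF factors, Sox7 had an enrichment of 8.08 in pool I, 8.78 in pool J and 8.73 in the replicated list, and Sox17, an arterial regulator, had 5.89, 6.27 and 5.01 in the same order. Sox18 had 10.4 in pool I, 6.29 in pool J and 6.53 in the replicated list over 2800, 2023 and 2195 bases. The widest Sox17 domain, at an internal start, differed by only 4 bases between the pools, 2437 bases in pool I (2 merged peaks) and 2433 in pool J. A separate peak over the 5′-most Sox17 start measured 781 bases in pool I and 894 in pool J, with enrichments of 3.42 and 2.85. The 3 SOXF genes thus sat at CpG-rich starts with enrichment below percentile 25 of all marked genes in the replicated list.

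The ETS factors were more spread out. Ets1, which T cells and other cells also express, had the highest value, 19.4 in pool I, 15.2 in pool J and 17.4 in the replicated list. Fli1 had 14.4 in pool I, 9.62 in pool J and 13.045 in the replicated list over 3495, 3479 and 3496 bases. Erg, the most endothelial of the ETS factors, was the lowest, with 4.94 in pool I, 5.50 in pool J and 4.82 in the replicated list over 4289, 2832 and 3174 bases, at an internal start of the gene. Lef1, a nuclear partner of beta-catenin, had 12.8 in pool I, 12.4 in pool J and 13.04 in the replicated list. The highest point of the Lef1 peak lay 69 bases from the start of the antisense transcript Gm43352 and 638 bases from the nearest Lef1 start, so the 2 promoters could not be separated.

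Transcription factors and effectors had similar median values. The 7 factors were all marked and 20 of 21 effectors were, with Ly6c1 the exception. Median enrichment was 8.73 for factors and 7.64 for marked effectors in the replicated list, 10.4 and 7.38 in pool I, and 8.78 and 8.17 in pool J. Median width was 2723 bases for factors and 2519.5 for effectors in the replicated list, 2800 and 2795 in pool I, and 2763 and 2355 in pool J. Widths ranged between 1640 and 3496 bases for factors and between 322 and 7204 bases for effectors in the replicated list. With the 5′-most start alone the order of median widths turned round, 2079 bases for factors against 2519.5 for effectors, and likewise when at least 50% of a peak had to lie in the window, 2195 against 2306.

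**Figure D2:**
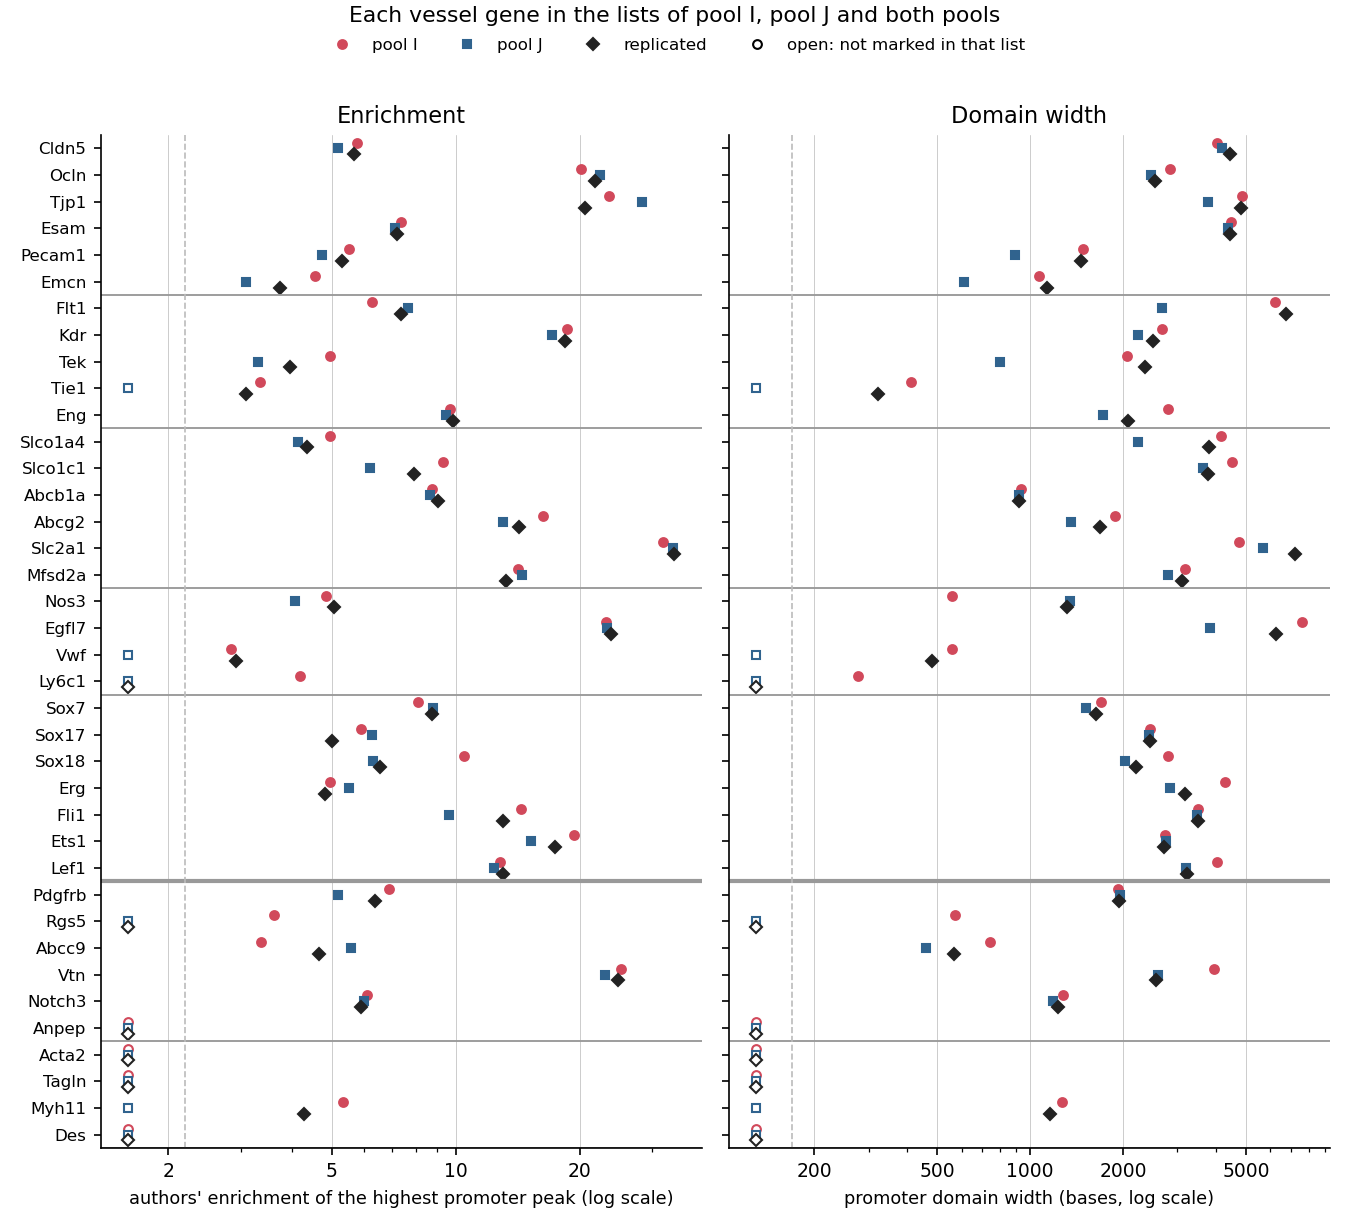
Authors' enrichment of the highest promoter peak and promoter domain width in bases for each of the 38 members in the lists of pool I, pool J and both pools (replicated), on log scales. Open symbols left of the dashed line stand for members with no promoter peak in that list, thin lines part the role groups and the thick line parts 28 endothelial genes above from 10 mural genes below.

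Pericyte genes were marked in 4 of 6 cases and smooth muscle genes in 1 of 4 in the replicated list, beside 65.2% of all genes. The counts were 5 of 6 and 1 of 4 in pool I, beside 64.8%, and 4 of 6 and 0 of 4 in pool J, beside 63.9%. Pdgfrb, the receptor for the platelet-derived growth factor that endothelium secretes, had an enrichment of 6.87 in pool I, 5.17 in pool J and 6.37 in the replicated list, over 1931, 1952 and 1946 bases. Notch3, the Notch receptor of mural cells, had 6.08 in pool I, 5.98 in pool J and 5.89 in the replicated list over 1277, 1183 and 1235 bases. Notch3 also held 2 peaks inside the gene in each list that were stronger than its promoter, with enrichments of at most 10.3 in pool I, 10.3 in pool J and 11.1 in the replicated list and no annotated start within 1000 bases. Abcc9, the sulfonylurea receptor subunit of the pericyte potassium channel, had 3.36 in pool I, 5.57 in pool J and 4.66 in the replicated list over 743, 460 and 566 bases. Its channel partner Kcnj8, the neighbouring gene, had 10.8 in the replicated list over 2000 bases.

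Vtn, vitronectin, stood apart with an enrichment of 25.3 in pool I, 23.1 in pool J and 24.8 in the replicated list, but that peak also held the start of Sarm1, a neuronal gene on the other strand. The highest point of the peak lay 436 bases from the Sarm1 start and 1773 from the nearest Vtn start, and its edge was 712 bases short of that start in the replicated list. Pool I also held a peak of 447 bases with an enrichment of 2.85 inside the Vtn gene, 180 bases from the nearest start. It was merged into the pool I domain of 3935 bases. Without Vtn, 4 of 9 mural genes were marked, with a median enrichment of 5.28 and a median width of 1199.5 bases. Rgs5 was marked in pool I alone, by a peak over its start of 573 bases with an enrichment of 3.61. The nearest peak of the replicated list lay 89538 bases away. Anpep, aminopeptidase N, had no promoter peak in either pool or in the replicated list, and a peak of 236 bases with an enrichment of 3.34 in the list of the pooled reads.

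Most smooth muscle genes had no promoter peak. Acta2, Tagln (transgelin) and Des (desmin, the muscle intermediate filament) had no peak within 1000 bases of any start in any of the 4 lists, with the nearest replicated peaks 28787, 17166 and 19420 bases away. Myh11, the smooth muscle myosin heavy chain, had an enrichment of 5.32 in pool I over 1272 bases and 4.27 in the replicated list over 1164 bases, and none in pool J. In the replicated list the Myh11 domain joined 2 peaks and ended 88 bases before the start. The nearer peak, of 200 bases, had an enrichment of 2.50 and a −log10 q of 1.25. The stronger peak, of 852 bases, had its highest point 1071 bases before the start. By comparison the cytoplasmic actins Actb and Actg1, which nearly all cells make, had 29.2 and 31.2 in the replicated list.

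The members marked in 1 pool were all marked in pool I. Of 34 members marked in pool I, 5 (14.7%) were not in pool J, namely Ly6c1, Tie1, Vwf, Rgs5 and Myh11, against 1.84% of all genes marked in pool I, and no member was marked in pool J alone. Pool I held more peaks, 24508, than pool J, 21573, and all 5 had an enrichment of at most 5.32. The 29 members marked in both pools had domains a median of 1.24 times as wide in pool I as in pool J, and 24 of the 29 were wider in pool I. Over all 13961 genes marked in both, the median ratio was 1.07. Widths of 18 of the 29 members (62.1%) lay within 1.5-fold between the pools, against 95.2% of all genes marked in both. The part of depth in these differences was not tested, since the files hold no read numbers.

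Low enrichment and a wide domain occurred together in 9 of 32 marked members, where 2.96% of all marked genes had an enrichment under percentile 25 and a width above percentile 75. These limits were chosen after the values were seen. The 9 were Cldn5, Esam, Flt1, Slco1a4, Slco1c1, Mfsd2a, Erg, Fli1 and Lef1, 6 effectors and 3 transcription factors, with no mural gene among them. In pool I the same 9 genes met the limits, of 34 marked, beside 3.04% of all marked genes, and in pool J 7 of 29 did, beside 3.07%, with Flt1 and Slco1a4 outside. The count depends on merging, since 5 members met the limits when the widest single peak stood for the domain, beside 2.31% of all marked genes. It also depends on the strength of the peaks kept. At a −log10 q of 5 or more, 6 members met the limits, beside 3.08% of all marked genes. At 10 or more, 5 members did, beside 3.31%. In that last setting 22 endothelial and 3 mural genes were marked, beside 62.3% of all genes. The same combination was found in 7 of 13 marked astrocyte markers, Slco1c1 among them, and in 7 of 19 marked genes of a list of other endothelial transcription factors. Mfsd2a (width percentile 77.6, enrichment percentile 19.9) lay just inside both limits, while Sox17 (width percentile 61.5) was the nearest outside on width and Tjp1 (enrichment percentile 48.9) on enrichment.

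Domains extended mainly into the gene. In the replicated list 27 of 32 marked members had more of their domain past the start than before it, beside 76.3% of all marked genes, a share not far from that of the members (84.4%). The median endothelial domain reached 1839 bases past the start and 490 before it, the median over all marked genes 1212 and 746. The start here is the one nearest the highest peak of the domain. Esam, Fli1, Lef1, Vtn and Myh11 went the other way. At Esam, Fli1 and Lef1 that start was internal to the gene. Their domains also covered the 5′-most start, and most of each domain lay past that start, within the gene.

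**Figure D3:**
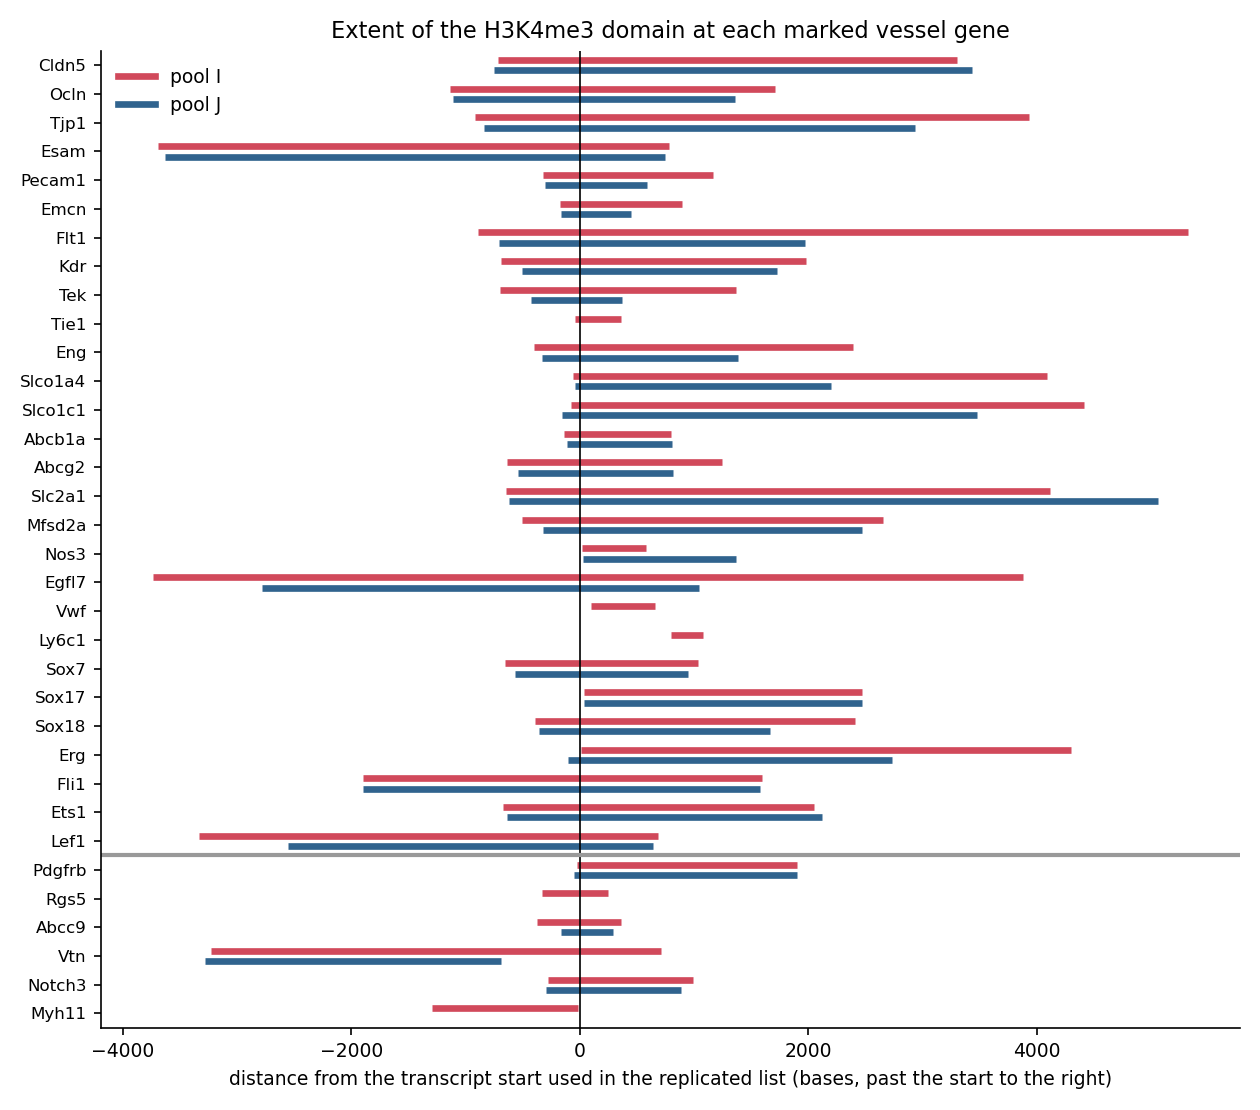
Extent of the widest promoter domain in pool I and pool J at each member marked in either pool, in bases from the transcript start used in the replicated list (own start for Ly6c1 and Rgs5), with the direction of transcription to the right. The Flt1 domain reaches past 5000 bases in pool I and ends near 2000 in pool J, and the thick line parts endothelial genes above from mural genes below.

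CpG content was set beside the mark at each member. Of the 5 unmarked mural genes, 4 lay in the 4 lowest deciles of CpG content at the 5′-most start, with Des the exception, though the RefSeq promoter of Anpep, one of the 4, held 28 CpG. The observed-to-expected CpG ratio, over 2001 bases around the start used (the 5′-most for unmarked genes), had a median of 0.492 for endothelial genes and 0.299 for mural genes, against 0.503 for all protein-coding genes. Transcription factors had a median of 0.705 and effectors 0.318. Genes were ranked into deciles by the ratio at the 5′-most start, and the share marked over all genes ran between 3.83% in the lowest decile and 98.7% in the highest. Among the 4 lowest deciles, 12 of 13 endothelial genes and 3 of 7 mural genes were marked, beside 21.6% of all genes there. Of the same 13 endothelial genes, 13 were marked in pool I and 10 in pool J. With the 5′-most start alone, Abcg2, Egfl7, Pecam1 and Vwf of these deciles were unmarked as well as Ly6c1. For Abcg2, Egfl7, Ets1, Pecam1 and Vwf the highest peak lay kilobases away from the start that was ranked. Among the 6 highest deciles, 15 of 15 endothelial genes (in each pool too) and 2 of 3 mural genes were marked, beside 94.2% of all genes.

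Single genes stood apart from others of like CpG content in both directions. Slco1c1 was marked with a ratio of 0.063 at the start used, in the decile where 3.83% of genes were. Slco1a4, with a ratio of 0.206, was marked in the third decile, where 23.0% of genes were, and so stood less apart. Its printed promoter held 1 CpG. Des was unmarked with a ratio of 0.605, in a decile where 96.4% of genes were marked. Flt1 lay in the highest decile and had an enrichment at percentile 2.40 of it. In all, 28 of 32 marked members (24 of 27 endothelial, 4 of 5 mural) had an enrichment below the median of their own CpG decile, and Slc2a1, Vtn, Egfl7 and Ets1 were above it.

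**Figure D4:**
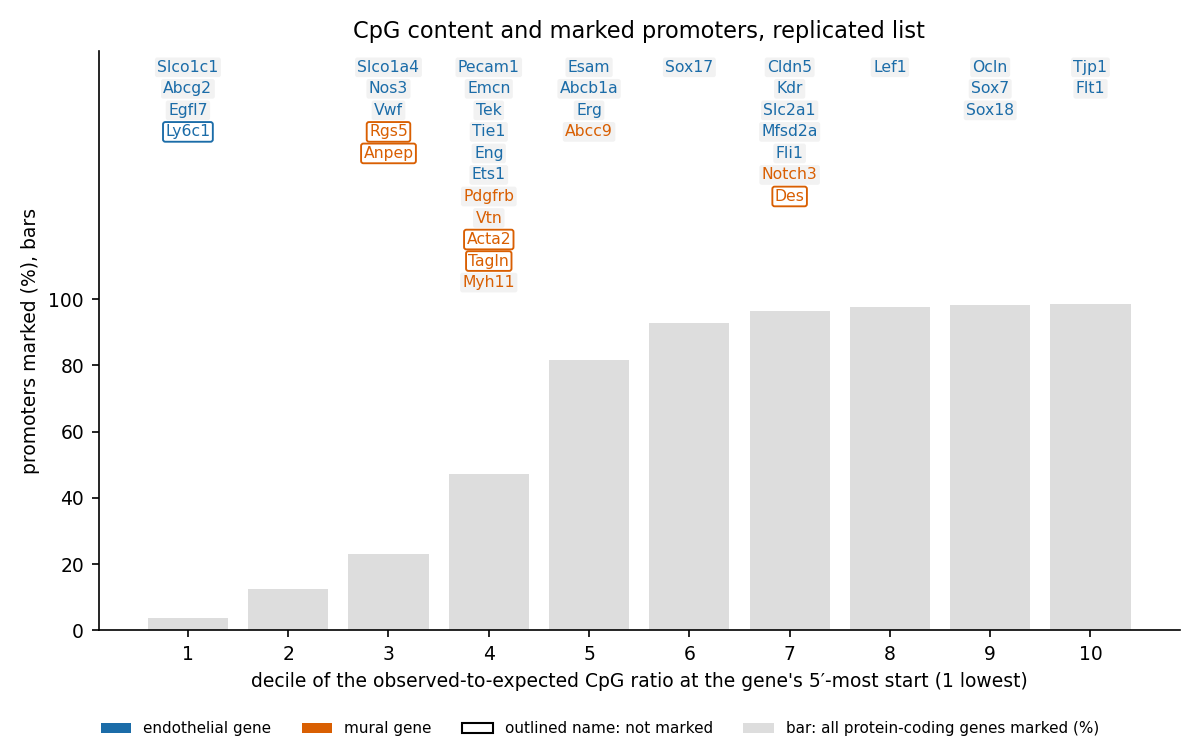
Share of protein-coding genes with a marked promoter in the replicated list (bars, percent) by decile of the observed-to-expected CpG ratio at the 5′-most start, with the 38 members written above their decile. Outlined names were not marked, among them Ly6c1 in the lowest decile and Des in the seventh.

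Letters of ETS and SOX motifs were sought on both strands of the RefSeq promoters, which matched 26 members (19 endothelial, 7 mural) and 16522 protein-coding genes, and none of the strings contains another. AGGAAG, an ETS form, was found in 9 of 19 endothelial and 0 of 7 mural promoters, beside 33.7% of all, and the printed Flt1 promoter holds it at offsets of -129 and -53 bases from the start. CCGGAA, an ETS form with a CpG, was found in 1 of 19 endothelial promoters, that of Kdr, in 0 of 7 mural ones and in 20.0% of all. ACAAT, a SOX core, was found in 4 of 19 endothelial and 1 of 7 mural promoters, beside 26.8% of all, and ACAAAG in 5 of 19 and 0 of 7, beside 16.4%. GGGCGG, an SP1 form, was found in 9 of 19 and 4 of 7, beside 49.4%, and TATAA in 7 of 19 and 2 of 7, beside 21.5%. The CArG box was sought only in its strict consensus, found in Lef1 alone among members and in 1.49% of all promoters, while variants with a mismatch, which smooth muscle promoters are known to use, were not sought. A match is a string of letters and not a binding site.

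Other genes of the same pathways, from lists of their own, were read beside the members. Of 17 other Wnt and barrier signalling genes all were marked, with a median enrichment of 20.0 in the replicated list, led by the receptor Fzd4 (27.2), the Wnt7 co-receptor Reck (24.2) and beta-catenin, Ctnnb1 (23.4). Of 20 other vessel ligands and receptors all were marked, with a median of 14.7, led by Pdgfa (28.7), Notch4 (28.5) and Vegfc (25.8). Other barrier transporters were marked in 14 of 15 cases, with a median of 23.4, led by the insulin receptor Insr (30.7), Slc3a2 (29.2) and Lrp1 (28.6), and Slc38a5 was unmarked. Other junction genes were marked in 13 of 14 cases, led by Cldn12 (24.99) and Jam3 (24.1), and Cldn3 was unmarked. Many genes of these lists are made by neurons and glia as well as by vessels. Lists more particular to vessel cells had lower values. Other endothelial transcription factors were marked in 19 of 21 cases with a median of 7.83, led by Foxo1 (25.3), Hey1 (25.2) and Lmo2 (19.9), with Etv2, a factor of the embryo, and Foxq1 unmarked. Other mural genes were marked in 8 of 16 cases with a median of 5.49, led by Kcnj8 (10.8), Mcam (10.4) and Myocd (8.55).

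Genes of leaky or peripheral endothelium, which the mature barrier keeps low, were marked in 4 of 10 cases in each of the 3 lists. Plvap, the diaphragm protein of fenestrated capillaries, the lymphatic receptor Lyve1, Stab2, Aqp1 and the selectins Sele and Selp were unmarked in all 3. The lymphatic factor Prox1, also a gene of neural progenitors and interneurons, led the list with an enrichment of 10.4 in the replicated list, followed by the adhesion molecules Vcam1 (6.30) and Icam1 (5.69).

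Markers of other cell types were read beside the endothelial members, whose median enrichment was 7.94 and median width 2541 bases in the replicated list. Astrocyte markers were marked in 13 of 14 cases, with medians of 9.37 and 3933 bases, and Gfap was unmarked. Excitatory neuron markers, the defining genes of cortical projection neurons, were marked in 14 of 14, with 18.6 and 7418.5 bases. Inhibitory neuron markers were marked in 11 of 12, with 6.10 and 2325 bases, and Vip was unmarked. Oligodendrocyte markers were marked in 8 of 10, with 4.94 and 2410.5 bases. Microglia markers differed between the lists of peaks, with 5 of 14 marked in pool I (4.18 and 1041 bases), 2 of 14 in pool J (14.3 and 4611.5 bases) and 8 of 14 in the replicated list (3.13 and 291.5 bases). Blood cell markers were marked in 2 of 10 cases, and the globin genes Hba-a1, Hba-a2, Hbb-bs and Hbb-bt were unmarked in both pools. Choroid plexus and ependymal markers were marked in 3 of 8, with Aqp1, Folr1, Kcne2, Otx2 and Ttr unmarked, and fibroblast and meningeal markers in 5 of 9, with Col3a1, Dcn, Lum and Slc6a13 unmarked. The part of these other cells in the signal at the members was not tested.

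**Figure D5:**
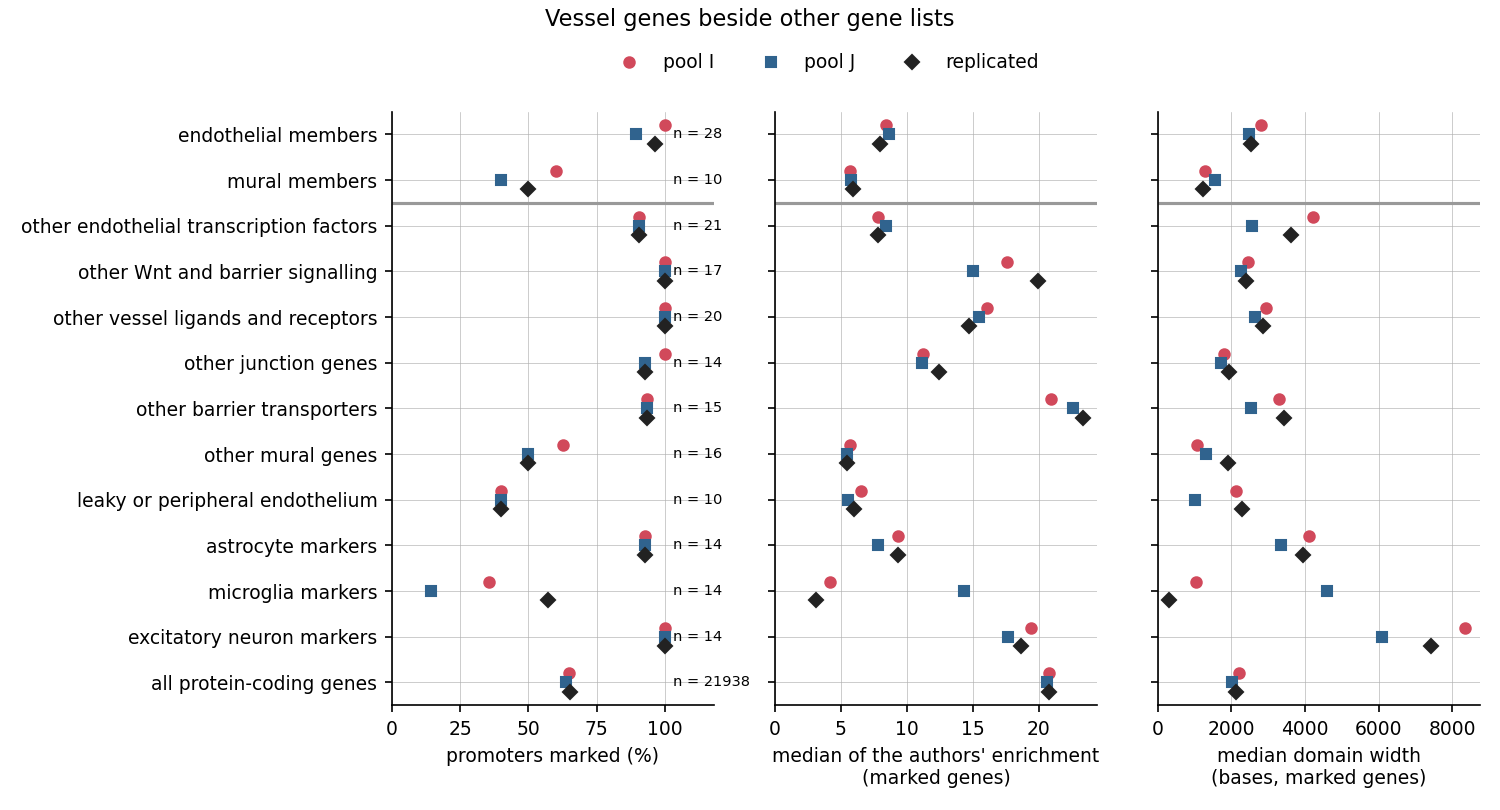
Share of promoters marked, median of the authors' enrichment and median domain width in bases for endothelial members, mural members, further vessel lists, markers of other cell types and all protein-coding genes, in the lists of pool I, pool J and both pools (replicated). Endothelial members stand above mural members in share and width, and both lie left of all protein-coding genes in enrichment.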

How the data were processed

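H3K4me3 ChIP-seq peaks of left cerebral cortex were analysed in 4 libraries grouped by the pool in the labels. The authors deposited 4 lists of peaks on mm10, per the labels, 1 for each pool, 1 for the pooled reads and 1 termed replicated, with 24508 (pool I), 21573 (pool J), 26286 and 25446 peaks. Both libraries of a pool entered 1 list. The enrichment of a peak is the authors' deposited ratio and is read as fold over control. The deposited −log10 q values served as filters in alternatives. No source used here gives aligner, peak caller or read numbers, so depth is unknown.

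Gene starts were those of GENCODE release M21, and peaks had to overlap a window by at least 1 base. CpG ratios came from the GRCm38.p6 sequence, whose lengths hold the peaks of all 21 chromosomes compared. Python 3.11.15, pandas 2.3.3 and numpy 2.4.6 were used, and the calling of promoters was tested on simulated peaks. There is 1 list per pool and genes are not replicates, so no p-value was computed, and values of both pools are given, with mean ± SD over 2 pools where stated, a spread that may be technical. The members, lists and alternatives were chosen with earlier results of these data known. All 38 members are named, and in further vessel lists the 3 of highest enrichment (1 junction gene among them is not reported here) and, where they were at most 5, the unmarked. For markers of other cell types the highest, and for oligodendrocyte markers the unmarked, were not named, which departs from the rule set for them. The limits for low and wide domains and the relatives of members were chosen after values were seen, as were the peaks inside genes singled out and further unmarked genes named.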

Additional observations from a re-analysis of the deposited data

How the results depend on the processing

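All 12 alternatives kept the share of marked genes higher in endothelial than in mural genes, and likewise the median enrichment and width of marked genes. Acta2, Tagln and Des were unmarked in every setting and 17 members were marked in every setting. With peaks kept only at −log10 q of 10 or more, 3 mural genes were marked (median enrichment 6.37, width 1946 bases), beside 62.3% of all genes. The low and wide members numbered 5, beside 3.31% of all marked genes, and the endothelial median enrichment was 9.47. At 5 or more the last was 8.73. With the 5′-most start alone, the median was 7.20 for endothelial enrichment and 2079 bases for transcription factor width. With at least 50% of the peak in the window, medians were 7.35 (endothelial enrichment), 5.28 (mural enrichment), 2195 bases (transcription factor width) and 2257 bases (endothelial width). In the list of the pooled reads they were 7.64, 5.28 and, for transcription factor width, 2754 bases. With peaks that cover no start of another gene they were 7.20, 5.28 and 2580 bases. Mural enrichment was also 5.28 with windows of 500 bases or without Vtn, the last chosen after seeing the data. Without merging, widths were 2437 bases (transcription factors), 1711.5 (effectors) and 2005 (endothelial), lower by construction since single peaks are narrower. The low and wide members were then 5, beside 2.31% of all marked genes, with percentiles ranked anew among the unmerged widths. The median width percentile of endothelial genes was 51.3 in that ranking. The cause of the other shifts was not tested. Leaving out pool J or pool I gave the following ranges: endothelial enrichment 8.41 to 8.66, mural enrichment 5.70 to 5.77, transcription factor width 2763 to 2800 bases, endothelial width 2471 to 2797.5 bases and mural width 1274.5 to 1567.5 bases. Of 722 values of single members under an alternative, 625 were unchanged or moved by less than the SD between pools. Members not marked in both pools had no SD, and for them only unchanged values were counted. The lists of the single pools, which set the SD, were among the alternatives. No paired analysis was possible because both libraries of a pool enter 1 list. With depth unknown, an unmarked promoter was not detectable here and is not shown to lack the mark.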
